A study of Homo sapiens with 4 samples.

Results

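The angiopoietin-TIE system is a set of secreted ligands and endothelial receptors that controls whether vessels stay quiet or remodel, and 6 of its genes were followed through hematopoietic differentiation of a human induced pluripotent stem cell line. The genes were the ligands *ANGPT1*, *ANGPT2* and *ANGPT4*, the receptors *TEK* (also called TIE2) and *TIE1*, and the receptor phosphatase *PTPRB* (VE-PTP). They were chosen by gene symbol, and all 6 were found, each on 1 row, among the 58274 gene identifiers of the table. Undifferentiated BC1 cells were the starting population. The BC1 cultures were given activin A and BMP4 for 2 days and then VEGF and bFGF for 6 days, and 3 populations were collected on the way. APLNR+ cells of day 2 represent mesoderm, CD31+CD34+ cells of day 5 the hemogenic endothelial progenitors (HEPs), and CD43+ cells of day 8 the hematopoietic progenitors (HPCs). BC1 is 1 cell line, no angiopoietin is named among the added factors, and each population was measured in 1 library. No test of a difference between populations was therefore possible, and no p-value is given.

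Angiopoietin-1 activates TEK on endothelial cells and keeps the vessel wall quiet and tight. Angiopoietin-2 competes for the same receptor and can block or weakly activate it, so the balance of both ligands matters for TEK. TIE1 binds no angiopoietin with high affinity and forms complexes with TEK, and VE-PTP removes phosphate groups from TEK and from its junctional partners. Both TIE receptors are also found on hematopoietic stem and progenitor cells, which arise from endothelium in the embryo.

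The levels are FPKM, fragments scaled to transcript length and to the number of mapped fragments, and since they are per length they can be set side by side for different genes. The 4 libraries held between 19700000 and 23600000 mapped fragments, as recovered from how low FPKM values are spaced, a 1.20-fold range. From 13554 to 14335 genes reached 1 FPKM in a library. The sorted populations carried their markers. *POU5F1* was at 1997 FPKM in BC1 and *APLNR* at 1073 FPKM in APLNR+ cells, all 12 endothelial markers reached 1 FPKM in CD31+CD34+ cells, and *SPN*, which encodes CD43, was at 92.4 FPKM in CD43+ cells. The markers were not confined to these populations. *POU5F1* was at 573 FPKM in APLNR+ cells, and *APLNR* at 209 and *SPN* at 11.7 FPKM in CD31+CD34+ cells. In CD43+ cells 10 of the 12 endothelial markers were at 1 FPKM or more. APLNR and CD43 are also the antigens that name their populations. *PTPRC*, which encodes the leukocyte antigen CD45, stayed between 0.00974 and 0.0349 FPKM, so the CD43+ library carried no CD45 signal above the low level of the other populations. Changes are differences of log2(FPKM + 1), and a gene is said to have risen or fallen when it changed by at least 1 on this scale, on which low genes appear to change less than their FPKM does. Folds are ratios of FPKM, given with exact Clopper-Pearson 95% intervals from approximate fragment numbers, which cover counting error and leave out how much cultures or sorts vary.

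Of the 6 genes, 5 reached 1 FPKM in at least 1 library, as did 17137 genes in all, and *ANGPT4* did not. From BC1 to APLNR+ cells, 1 of the 6 genes rose (*ANGPT2*) and 2 fell (*TEK* and *TIE1*), where 9.15% of these 17137 genes rose and 9.32% were lower by as much. At the next transition, into CD31+CD34+ cells, 3 rose (*TEK*, *TIE1* and *PTPRB*) and 1 fell (*ANGPT2*), against 13.0% and 11.4% of all genes. From CD31+CD34+ to CD43+ cells, 1 rose (*ANGPT1*) and 3 fell (*TEK*, *TIE1* and *PTPRB*), against 7.63% and 13.5% of all genes. The receptors and the phosphatase thus had their highest levels in CD31+CD34+ cells, *ANGPT2* and *ANGPT4* in APLNR+ cells and *ANGPT1* in CD43+ cells, and none of the 6 was highest in BC1. Of all 17137 genes, 25.5% were highest in CD31+CD34+ cells, 22.7% in APLNR+ cells, 24.0% in CD43+ cells and 27.7% in BC1. In bulk RNA, fewer cells of a type and less RNA per cell cannot be told apart.

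**Figure D1:**
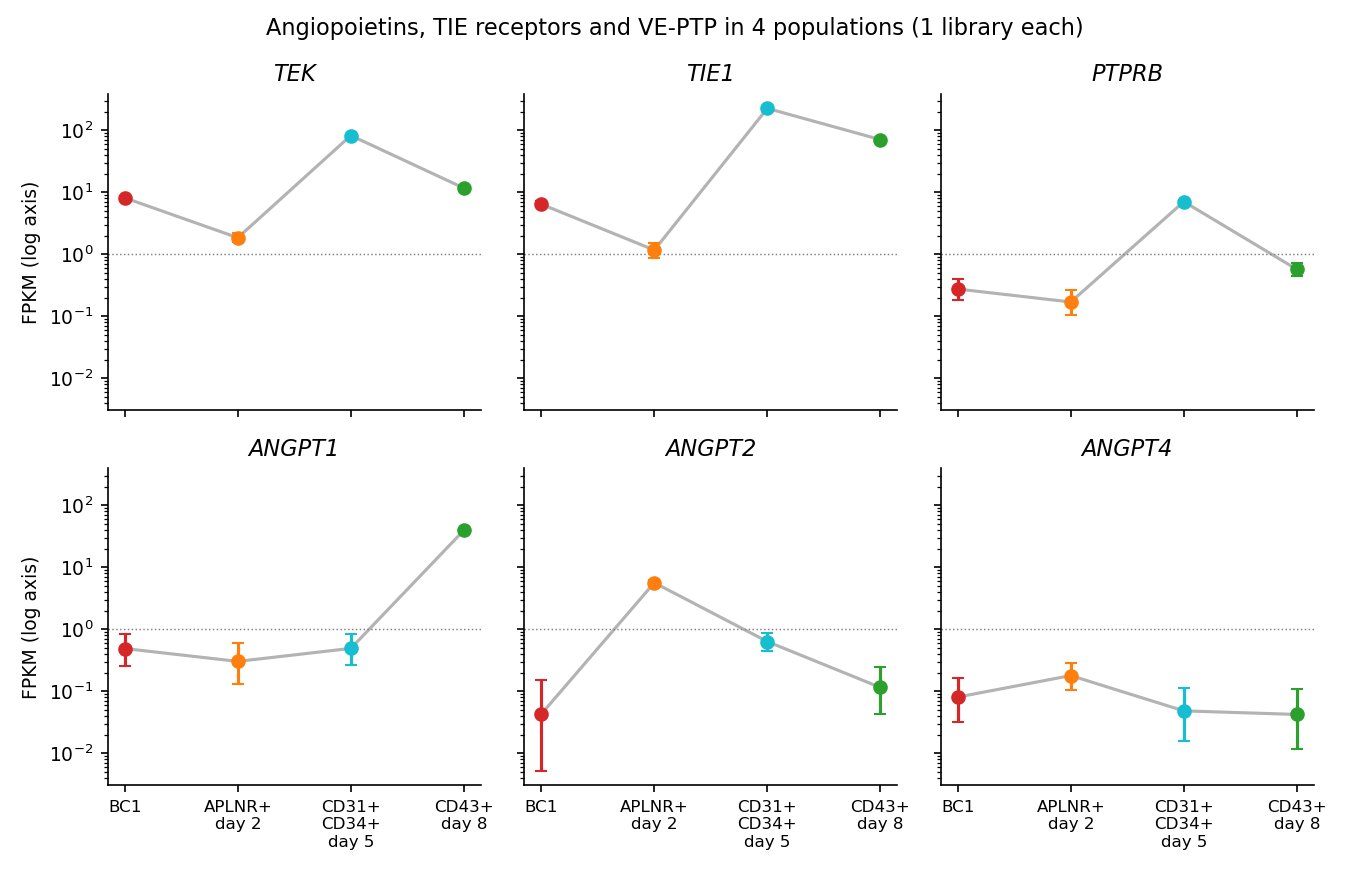
FPKM of each gene on a log axis in BC1, APLNR+ (day 2), CD31+CD34+ (day 5) and CD43+ cells (day 8), 1 library each, with bars for the 95% counting interval and a dotted line at 1 FPKM. *TEK*, *TIE1* and *PTPRB* peak in CD31+CD34+ cells at 82.5, 226 and 7.07 FPKM, *ANGPT2* peaks in APLNR+ cells at 5.63 FPKM and *ANGPT1* in CD43+ cells at 39.5 FPKM, while *ANGPT4* stays at or below 0.179 FPKM.

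The promoters of both receptor genes are shown, and *TEK* and *TIE1* fell, rose and fell together at the 3 transitions. *PTPRB*, for which no window was read, rose and fell with them at the later transitions, after a first change of -0.12. The windows were taken from RefSeq on GRCh38.p14 and run from 250 bases before to 50 bases after a transcription start, 5′ to 3′ on the plus strand, which is the strand of both genes. The *TEK* window lies at chr9:27108975-27109274 and the *TIE1* window at chr1:43300732-43301031. Capitals mark GGAA or, for a match on the opposite strand, TTCC, the core letters that ETS factors such as FLI1 and ERG recognise.
TEK: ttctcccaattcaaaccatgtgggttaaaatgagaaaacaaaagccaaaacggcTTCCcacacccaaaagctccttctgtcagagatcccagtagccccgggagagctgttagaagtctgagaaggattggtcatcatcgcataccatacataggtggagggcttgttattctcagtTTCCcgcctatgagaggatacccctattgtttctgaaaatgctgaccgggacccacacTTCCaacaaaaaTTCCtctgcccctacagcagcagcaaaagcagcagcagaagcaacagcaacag
TIE1: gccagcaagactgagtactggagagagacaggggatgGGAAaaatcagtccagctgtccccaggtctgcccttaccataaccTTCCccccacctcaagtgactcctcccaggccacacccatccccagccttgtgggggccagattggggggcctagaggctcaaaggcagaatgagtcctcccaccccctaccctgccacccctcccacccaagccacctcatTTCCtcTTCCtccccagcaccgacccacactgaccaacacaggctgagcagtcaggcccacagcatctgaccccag
Each window held 4 matches to GGAA on either strand. Such matches were common: 95.5% of 35116 RefSeq promoter windows of the same length held at least 1, and 46.0% held 4 or more. In the *TEK* window all 4 matches were on the minus strand, starting 196, 73, 15 and 3 bases before the start, and in the *TIE1* window they started 213, 168, 26 and 20 bases before it. The longer AGGAAG, which contains GGAA, was found 1 time in the *TIE1* window, 21 bases before the start, and not in the *TEK* window, and 33.6% of all windows held it. GATA was found 1 time in the *TEK* window and not in the *TIE1* window (49.7% of all windows), and CANNTG, the E-box, 1 time and 3 times (68.7% of all windows). A further *TEK* window in RefSeq, not printed here, overlaps the first in part and held 7 matches to GGAA and 4 to GATA, numbers reached by 8.29% and 4.10% of all windows. Matches on the bases shared by both *TEK* windows are counted in each, so the 7 are not all additional to those of the first. The window of *ANGPT4*, a gene at or below 0.179 FPKM, held 5 matches to GGAA and 3 to AGGAAG. These numbers were reached by 28.6% and 1.49% of all windows. The *TEK* window has a GC content of 48.0% and the *TIE1* window of 61.3%. These are matches of letters and not binding sites. Only windows of *ANGPT4*, *TEK* and *TIE1* were read. Those of *ANGPT1*, *ANGPT2* and *PTPRB* were not examined, so nothing is known here of their matches.

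*ANGPT1*, the agonist ligand, was low until the last population and rose there. It stood at 0.488 FPKM in BC1, 0.303 in APLNR+ cells, 0.491 in CD31+CD34+ cells and 39.5 in CD43+ cells. The first 3 levels rest on about 12, 8 and 14 fragments, and the intervals of their ratios include no change, from a 4.54-fold decrease to a 1.65-fold increase between BC1 and APLNR+ cells and from a 2.31-fold decrease to a 2.38-fold increase between BC1 and CD31+CD34+ cells. The rise from CD31+CD34+ to CD43+ cells was 4.76 on the log2 scale, a fold of 80.4 (95% interval 47.7 to 148), and only 43 of the 17137 genes, *ANGPT1* included, rose by at least as much at that transition. In CD43+ cells 85.6% of all genes were lower than *ANGPT1*. The gene is annotated at chr8:107249482-107498055 on the minus strand of GRCh38 (ENSG00000154188.9).

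Several cell types are known for angiopoietin-1, among them pericytes, megakaryocytes with the platelets they shed, and primitive hematopoietic cells, and their markers were measured in the same libraries. The 12 megakaryocyte and platelet markers summed to 15.5 FPKM in BC1, 6.61 in APLNR+ cells, 122 in CD31+CD34+ cells and 3502 in CD43+ cells, and 10 of the 12 rose at the last transition with *ANGPT1*. *PF4* (platelet factor 4) went from 14.4 to 1674 FPKM and *GP9* (a subunit of the platelet receptor for von Willebrand factor) from 0.625 to 53.2 FPKM, while *VWF* fell. *GP6*, *TREML1* and *GP9* were among the markers at 0 in BC1. The 8 erythroid markers all rose at the same transition and summed to 60.5 FPKM in CD31+CD34+ cells and 11483 FPKM in CD43+ cells. Of 7 hematopoietic markers 6 passed 1 FPKM, and 5 of these rose and none fell at that transition. Their sum was 333 FPKM in CD31+CD34+ cells and 760 FPKM in CD43+ cells. The 12 pericyte and smooth muscle markers went the other way, from a sum of 619 FPKM in CD31+CD34+ cells to 63.8 FPKM in CD43+ cells. Of the 10 that passed 1 FPKM, 7 fell and none rose, and *RGS5* alone went from 393 to 3.58 FPKM. In CD43+ cells 7 of the 12 were still at 1 FPKM or more. *ACTA2* was at 30.1 FPKM there, a change of -0.66, *MCAM* at 11.3, *PDGFRB* at 2.56 and *CSPG4* (NG2) at 0.422 FPKM. The part of the cells behind any of these markers, pericyte and smooth muscle, megakaryocyte, erythroid or hematopoietic, in the *ANGPT1* result was not tested.

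*ANGPT2*, the context-dependent antagonist stored in endothelial granules, had its maximum in mesoderm and not in endothelium. It was at 0.0427 FPKM in BC1, 5.63 in APLNR+ cells, 0.633 in CD31+CD34+ cells and 0.115 in CD43+ cells, from about 2, 306, 38 and 6 fragments. The APLNR+ library stood apart from the other 3. From BC1 to APLNR+ cells it rose by 2.67 on the log2 scale, a ratio of 132 that rests on the 2 fragments of BC1 and has an interval from 36.2 to 1094. It then fell by 2.02 on the log2 scale, 8.89-fold (6.33 to 12.8), into CD31+CD34+ cells. The last change was -0.55 on the log2 scale, 5.50-fold lower in FPKM (2.31 to 15.9), which is under the limit used for a fall although its counting interval lies away from no change. At its maximum *ANGPT2* was a gene of middling level, with 46.9% of all genes lower. The gene lies at chr8:6499651-6563409 (ENSG00000091879.13) within the locus of *MCPH1* on the opposite strand. Of its 6775 exonic bases 78 are shared with *MCPH1*, a gene that was between 5.35 and 8.43 FPKM in the 4 libraries, and since the use of strand in counting is not given in the sources used here, reads from these shared bases cannot be told apart.

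*ANGPT4*, the least studied ligand, was near the counting floor throughout. It was at 0.0805, 0.179, 0.0482 and 0.0422 FPKM in BC1, APLNR+, CD31+CD34+ and CD43+ cells, where 3 fragments amount to between 0.0289 and 0.0345 FPKM. About 7, 17, 5 and 4 fragments stand behind these levels. The value was highest in APLNR+ cells, 3.72-fold above CD31+CD34+ cells (1.32 to 12.9), and its ratio to BC1 of 2.23 has an interval from 0.878 to 6.36 that includes no change. The changes at the 3 transitions were 0.13, -0.17 and -0.01 on the log2 scale. It has 1 annotated transcript of 4676 bases, at chr20:869899-916317 on the minus strand (ENSG00000101280.7).

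The balance of the ligands differed from population to population by more than the counting error. The ratio of *ANGPT2* to *ANGPT1* FPKM was 0.0875 in BC1 (0.00952 to 0.393), 18.6 in APLNR+ cells (9.30 to 43.4), 1.29 in CD31+CD34+ cells (0.683 to 2.58) and 0.00291 in CD43+ cells (0.00107 to 0.00636). *ANGPT2* was thus the higher ligand in mesoderm, neither ligand was above the other beyond counting error in CD31+CD34+ cells, and *ANGPT1* was 343-fold above *ANGPT2* (157 to 937) in CD43+ cells. At the endothelial stage, where *TEK* peaked, both ligands were below 1 FPKM and *TEK* was 168-fold above *ANGPT1* (100 to 307). In CD43+ cells the order was turned and *ANGPT1* was 3.38-fold above *TEK* (3.09 to 3.69).

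**Figure D2:**
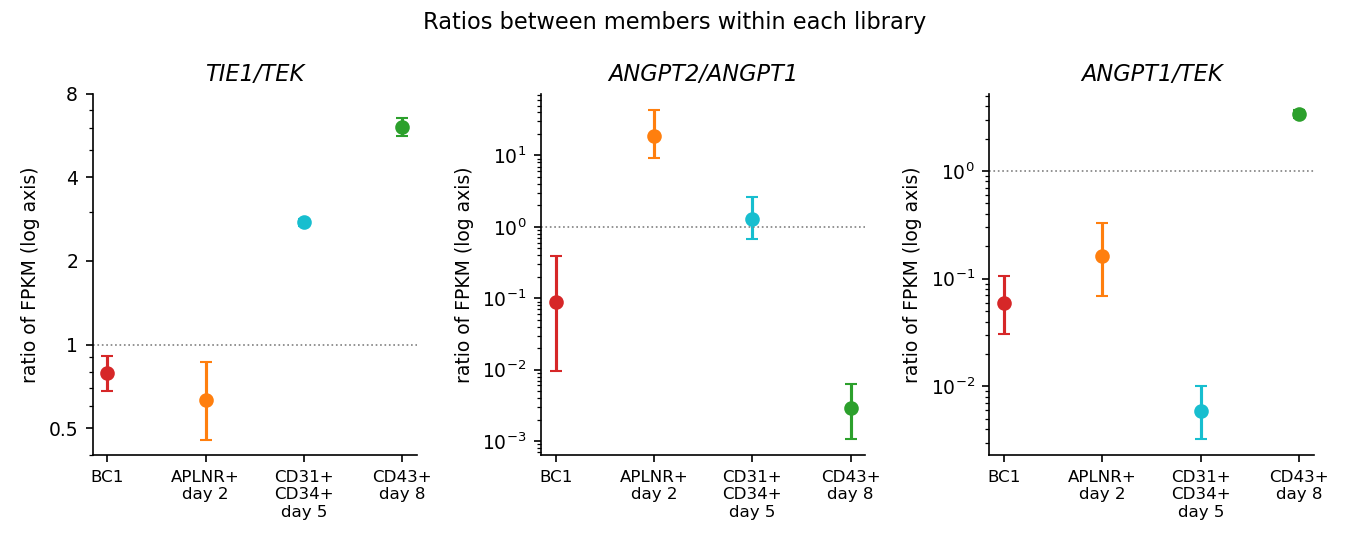
Ratios of FPKM of gene pairs within each library on log axes, with bars for the 95% counting interval and a dotted line at equal levels. *TIE1* over *TEK* goes from 0.791 in BC1 to 6.05 in CD43+ cells, *ANGPT2* over *ANGPT1* is highest in APLNR+ cells at 18.6 and lowest in CD43+ cells at 0.00291, and *ANGPT1* over *TEK* is lowest in CD31+CD34+ cells at 0.00596 and above 1 in CD43+ cells at 3.38.

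*TEK*, the signaling receptor for the angiopoietins, was present in pluripotent cells, dipped in mesoderm, peaked in HEPs and fell again in HPCs. Its levels were 8.14 FPKM in BC1, 1.85 in APLNR+ cells, 82.5 in CD31+CD34+ cells and 11.7 in CD43+ cells, from about 588, 146, 7112 and 923 fragments. It fell 4.40-fold (3.67 to 5.31) into APLNR+ cells, a change of -1.68 on the log2 scale. It then rose 44.6-fold (37.9 to 52.9), by 4.87 on the log2 scale, and 64 genes rose by at least as much at that transition. Into CD43+ cells it fell 7.05-fold (6.58 to 7.56), a change of -2.72. The level in CD43+ cells was close to that of BC1, 1.44-fold higher (1.30 to 1.60), a difference of 0.48 on the log2 scale. The gene has 5 protein-coding transcripts at chr9:27109141-27230175 on the plus strand (ENSG00000120156.20), and the pseudogenes that overlap it, *RNA5SP280* and *AL355433.1*, share no exonic base with it and were at 0 FPKM.

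*TIE1*, the partner receptor, followed the same order of changes with a larger peak and a smaller last fall. It was at 6.44 FPKM in BC1, 1.17 in APLNR+ cells, 226 in CD31+CD34+ cells and 70.8 in CD43+ cells, from about 285, 56, 11925 and 3404 fragments. In CD31+CD34+ cells only 360 of the 17137 genes were higher. It fell 5.52-fold (4.13 to 7.49) into APLNR+ cells, a change of -1.78 on the log2 scale, and rose 194-fold (150 to 257) into CD31+CD34+ cells, by 6.71. Counting *TIE1* itself, 9 genes rose by at least as much. Into CD43+ cells it fell 3.20-fold (3.08 to 3.33), a change of -1.66, and the level there was still 11.0-fold above BC1 (9.74 to 12.5). The gene lies at chr1:43300993-43323108 on the plus strand (ENSG00000066056.13).

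The ratio of both receptors shifted along the series. *TIE1* was below *TEK* in BC1, with a ratio of 0.791 (0.684 to 0.913), and in APLNR+ cells, with 0.631 (0.455 to 0.864). It was above *TEK* in CD31+CD34+ cells, with 2.75 (2.67 to 2.83), and in CD43+ cells, with 6.05 (5.62 to 6.51). The intervals of BC1 and APLNR+ cells overlap, while those of the later populations overlap neither with each other nor with these. A ratio between genes also carries the transcript lengths that the authors' program used, and the transcripts in use in each population were not measured.

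*PTPRB*, the endothelial phosphatase that holds TEK signaling down, also peaked in HEPs, at a lower level than the receptors. It was at 0.275 FPKM in BC1, 0.170 in APLNR+ cells, 7.07 in CD31+CD34+ cells and 0.571 in CD43+ cells, from about 30, 20, 927 and 68 fragments, and so passed 1 FPKM in CD31+CD34+ cells alone. Its FPKM in APLNR+ cells was 0.619 of that in BC1, with an interval from 0.333 to 1.13 that includes no change when fragments are taken from the median transcript length and from 0.413 to 0.922 when they are taken from the longest. It rose 41.5-fold (26.7 to 68.3) into CD31+CD34+ cells, by 2.79 on the log2 scale, and fell 12.4-fold (9.68 to 16.1) into CD43+ cells, a change of -2.36. Against BC1 the level of CD43+ cells was 2.08-fold higher (1.33 to 3.31). Its FPKM was 0.0338 of that of *TEK* in BC1, 0.0921 in APLNR+ cells, 0.0857 in CD31+CD34+ cells and 0.0488 in CD43+ cells, so that the phosphatase message was below that of the receptor in each library. The gene lies at chr12:70515866-70637440 on the minus strand (ENSG00000127329.15). The antisense gene *AC025569.1* shares 1040 of its 14542 exonic bases and was at 0.218 FPKM in CD31+CD34+ cells and between 0.0180 and 0.0248 FPKM elsewhere, and its reads cannot be told apart from those of *PTPRB* on the shared bases.

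**Figure D3:**
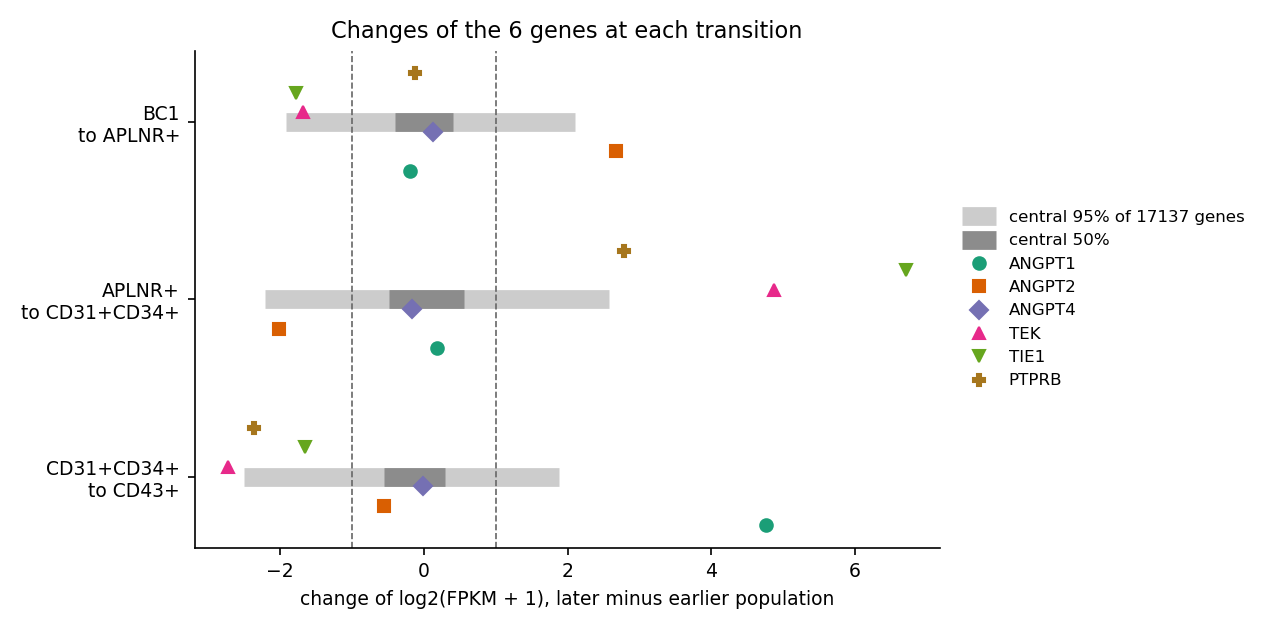
Change of log2(FPKM + 1) of each gene at the 3 transitions, later minus earlier population, with grey bars for the central 50% and 95% of 17137 genes and dashed lines at a change of 1 in either direction. *TIE1* and *TEK* stand at 6.71 and 4.87 from APLNR+ to CD31+CD34+ cells and *ANGPT1* at 4.76 from CD31+CD34+ to CD43+ cells, all to the right of the bars.

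At the later transitions the receptors and the phosphatase moved in the direction of most general endothelial markers, which were uneven among themselves in the last step. The 12 endothelial markers summed to 73.5 FPKM in BC1, 118 in APLNR+ cells, 2115 in CD31+CD34+ cells and 582 in CD43+ cells, with only *EMCN* at 0 in any library, BC1. From BC1 to APLNR+ cells, where *TEK* and *TIE1* fell, *KDR* and *SOX18* rose and *ECSCR* fell, with a median change of 0.16. Into CD31+CD34+ cells 11 of the 12 rose, with a median change of 4.25, and from CD31+CD34+ to CD43+ cells 9 fell and none rose, with a median of -2.30. *MMRN2* (-4.64), *CDH5* (VE-cadherin, -4.44), *KDR* (VEGF receptor 2, -3.87), *ECSCR* (-3.62) and *SOX18* (-3.22) changed more than *TEK* at that step. *VWF* (-2.53) lay between *TEK* and *PTPRB*, *ROBO4* (-2.07) between *PTPRB* and *TIE1*, and *EGFL7* (-1.40) and *CLDN5* (-1.09) changed less than *TIE1*. The changes of *ESAM* (-0.35), *EMCN* (0.27) and *PECAM1* (CD31, 0.44) were under the limit. The part of these markers in the fall of *TEK*, *TIE1* and *PTPRB* was not tested.

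**Figure D4:**
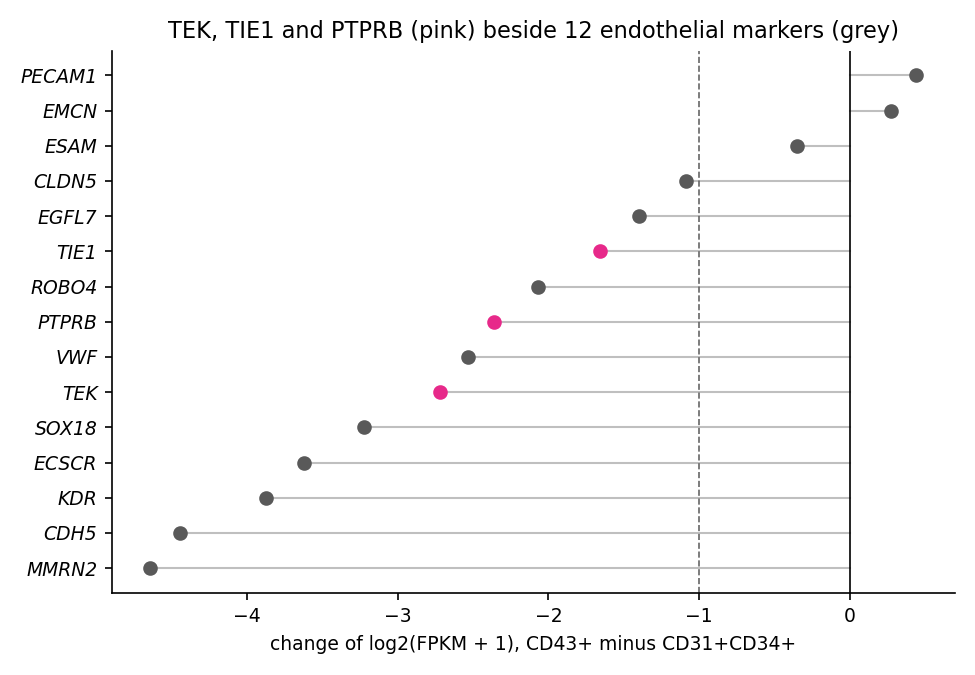
Change of log2(FPKM + 1) from CD31+CD34+ to CD43+ cells for *TEK*, *TIE1* and *PTPRB* (pink) and 12 endothelial markers (grey), with a dashed line at -1. The 3 genes, at -2.72, -1.66 and -2.36, lie within the range of the markers, which runs from -4.64 for *MMRN2* to 0.44 for *PECAM1*.

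Genes with the profile most like that of each member were found by the Euclidean distance of log2(FPKM + 1) over the 4 libraries among 13910 protein-coding genes. The nearest gene to *ANGPT1* was *DOK2*, an adaptor that docks on the activated TEK receptor, at a distance of 0.44, followed by *RAB27B* (0.51) and *DGKI* (0.52). *DOK2* was at 0.296, 0.274, 0.270 and 31.4 FPKM in the 4 populations and so also appeared in CD43+ cells. The nearest to *ANGPT2* were *PKNOX2* (0.30), *FSHR* (0.35) and *FAM167A* (0.40). *GIMAP4* (0.13), *TNFSF10* (0.29) and the endothelial protocadherin *PCDH12* (0.33) were nearest to *PTPRB*. *GIMAP4* ran almost level with it, at 0.171, 0.143, 6.96 and 0.606 FPKM.

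No gene lay within a distance of 1 of *TEK* or *TIE1*, where 16 did for *ANGPT1*, 55 for *ANGPT2* and 63 for *PTPRB*, although with a pseudocount of 0.1 these numbers were 1, 2 and 4, and still 0 for both receptors. Nearest to *TEK* were *FGD5* (1.07), an endothelial guanine nucleotide exchange factor, *SNCG* (1.16) and *RASIP1* (1.24), a regulator of endothelial tube formation. *FGD5* was at 5.57, 4.51, 80.6 and 11.4 FPKM, with levels near those of *TEK* except in APLNR+ cells. Nearest to *TIE1* were *CAVIN1* (1.59), which shapes caveolae, *CD82* (1.59) and *TSPAN18* (1.96). With that pseudocount the same 3 genes were nearest to *TEK* and to *TIE1*, *DOK2* and *GIMAP4* were still nearest to *ANGPT1* and *PTPRB*, and none of the 3 neighbours of *ANGPT2* was kept.

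The TEK receptor signals through adaptors and kinases to survival and nitric oxide pathways. Of 15 adaptors, kinases and targets, 2 rose and 1 fell from BC1 to APLNR+ cells (median change 0.01, against 0.00 for all genes), 4 rose and 2 fell into CD31+CD34+ cells (0.08, against 0.01), and 1 rose and 3 fell into CD43+ cells (-0.35, against -0.08). *NOS3*, the endothelial nitric oxide synthase activated through AKT, was at 5.06, 8.16, 93.7 and 2.87 FPKM, and rose by 3.37 and fell by 4.61 on the log2 scale at the later transitions. *GRB7*, an adaptor that binds TEK, fell by 1.99 into APLNR+ cells and by 1.90 into CD43+ cells, from 13.4 FPKM in BC1 to 0.0335 FPKM. *AKT1*, the kinase of the survival branch, rose by 1.81 into APLNR+ cells and was at 47.1, 167, 141 and 110 FPKM. *DOK2* was the gene that rose in CD43+ cells, by 4.67. *FOXO1*, the transcription factor that AKT holds out of the nucleus and that drives *ANGPT2* in endothelium, was at 11.3, 5.73, 11.6 and 5.44 FPKM, with no change of 1 or more.

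The extracellular partners include integrins that bind angiopoietins, the matrix protein SVEP1 and the proteases ADAM17 and MMP14 that shed TIE receptors. Of 8 genes 7 passed 1 FPKM and *LECT2*, a TIE1 ligand, did not. From BC1 to APLNR+ cells *MMP14*, *ITGA5* and *SVEP1* rose, into CD31+CD34+ cells *ITGAV*, *ITGB1* and *ITGB3* rose, and into CD43+ cells *ITGB3* rose and *ITGAV*, *ITGB1*, *MMP14* and *ITGA5* fell. The medians were 0.16, 0.57 and -1.26. *ITGB3*, the beta chain of the vitronectin and platelet receptors, was at 0.0753, 0.0673, 6.68 and 501 FPKM. *ITGA5*, the alpha chain of the fibronectin receptor, was at 5.84, 150, 132 and 10.3 FPKM, and its partner *ITGB1* at 104, 98.1, 293 and 90.8 FPKM. *MMP14* rose by 2.05 into APLNR+ cells and fell by 1.86 into CD43+ cells.

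VE-PTP is known to act on VE-cadherin, on VEGF receptor 2 and on catenins at endothelial junctions. Of these 6 partner genes, 1 rose into APLNR+ cells, 3 rose into CD31+CD34+ cells and 3 fell into CD43+ cells, with medians of 0.14, 0.83 and -1.02. *CDH5* was at 0.523, 0.663, 224 and 9.38 FPKM and *KDR* at 33.1, 70.0, 569 and 38.0 FPKM. In CD31+CD34+ cells both were thus far above *PTPRB* at 7.07 FPKM. *JUP* (plakoglobin) rose by 1.09 into CD31+CD34+ cells, and *CTNND1* (p120 catenin) fell by 1.09 into CD43+ cells. Of the other receptor phosphatases of the same R3 class, *PTPRJ* rose by 1.83 into CD43+ cells, to 10.9 FPKM, and *PTPRH* rose by 1.08 into CD31+CD34+ cells, to 1.38 FPKM, while *PTPRO* and *PTPRQ* did not pass 1 FPKM. *PTPRB*, at 0.571 FPKM in CD43+ cells, was below *PTPRJ* there and also in BC1 and APLNR+ cells, where *PTPRJ* was at 5.30 and 2.31 FPKM. In CD31+CD34+ cells *PTPRJ*, at 2.33 FPKM, was the lower of both.

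Endothelial receptor genes are known targets of ETS, GATA and partner transcription factors. Of 12 such factors, 3 rose and 1 fell into APLNR+ cells (median 0.34), 9 rose and none fell into CD31+CD34+ cells (2.71), and 2 rose and 5 fell into CD43+ cells (-0.41). *FLI1*, an ETS factor, was at 0.238, 2.95, 316 and 367 FPKM, *TAL1* at 0, 0.0608, 71.2 and 184 FPKM and *LMO2* at 0.756, 0.459, 107 and 188 FPKM, so that all of them were at their highest in CD43+ cells, where *TEK* and *TIE1* had fallen. *ERG*, an ETS factor of endothelium, was at 1.72, 0.543, 75.1 and 5.68 FPKM and fell by 3.51 in the last step. At the same step *KLF2* fell by 2.46. *GATA2* was at 0.125, 32.0, 254 and 211 FPKM. *EPAS1* (HIF-2 alpha) was the factor that fell, rose and fell past the limit as *TEK* and *TIE1* did, with 2.14, 0.403, 6.75 and 1.42 FPKM. Its changes were -1.16, 2.47 and -1.68 on the log2 scale. *ERG* went in the same directions, with a first change of -0.82 that was under the limit. The part of any of these factors in the changes of *TEK* and *TIE1* was not tested.

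**Figure D5:**
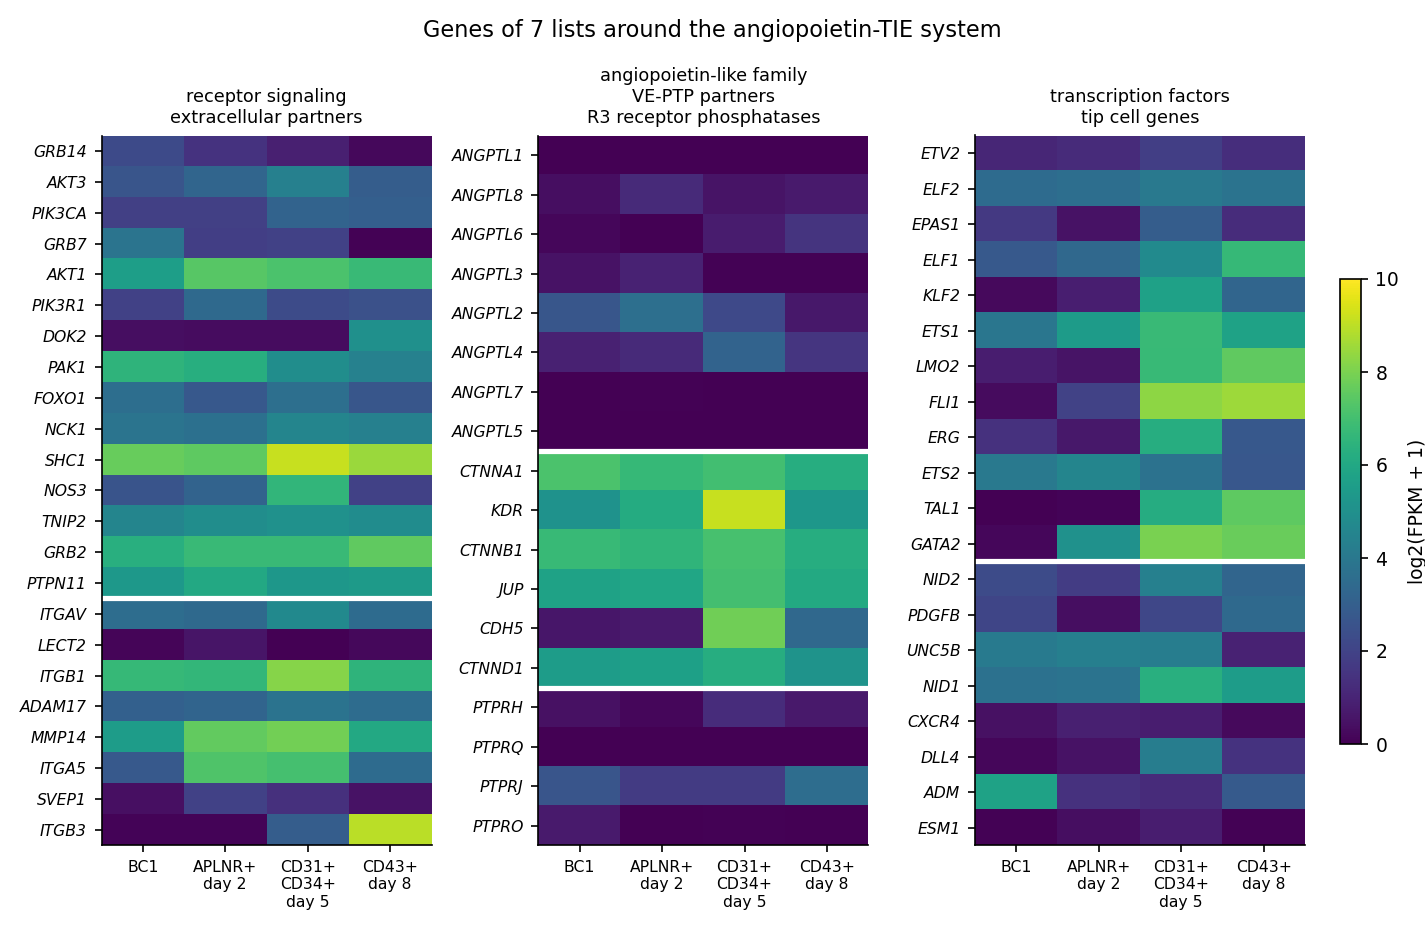
Colour map of log2(FPKM + 1) in the 4 populations, 1 library each, for the genes of 7 lists around the angiopoietin-TIE system, with white lines between lists. *DOK2* (31.4 FPKM) and *ITGB3* (501 FPKM) light up in CD43+ cells, *NOS3* (93.7 FPKM), *CDH5* (224 FPKM) and *ERG* (75.1 FPKM) in CD31+CD34+ cells.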

How the data were processed

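Total RNA of 4 BC1-derived populations was sequenced with an Illumina TruSeq RNA kit, 1 library per population, and columns were assigned to populations by name. The authors deposited 1 table of gene-level FPKM values with 58365 rows for 58274 identifiers, and the rows of the 90 identifiers on more than 1 row were summed. The submitters' processing notes list BWA, Bowtie, RSEM and build hg19, with no version or role given. The deposited loci instead matched GENCODE 29 on GRCh38: of 58011 identifiers found there (99.5%), 55647 had the same version and 55645 of these the same start and end. Positions are therefore given on GRCh38, counted from 1. The strand setting of the counting is not given in the sources used here.

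FPKM was analysed as log2(FPKM + 1), with genes of at least 1 FPKM in at least 1 library kept (17137). A change of at least 1 counted as a rise or a fall. Depth was recovered from the steps between low FPKM values of genes with 1 transcript of at least 1000 bases, and from 93.3% to 95.1% of these values came within 0.1 of a whole fragment number. The length taken off a transcript was between 258 and 284 bases. Fragments of a gene were approximated from a transcript length, the median over its protein-coding transcripts. The recovery of depth and the calls of changed genes were tried on simulated libraries. Depth was simulated for genes with 1 transcript only, so the fragment numbers of members with more transcripts were not checked in this way. No model of counts and no test was used.

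The 6 genes, the 7 pathway lists and the marker lists were chosen with earlier results of these data known. Named genes were the 6 members, the 3 nearest protein-coding genes of each member past the filter, and up to 4 genes of each list with the largest change, plus genes needed to account for a small count. *FOXO1* and *PTPRC* were named after their values were seen. Alternatives were other pseudocounts, scalings, filters, limits and transcript lengths. Python 3.11.15, pandas 2.3.3, NumPy 2.4.6, SciPy 1.17.1 and matplotlib 3.10.9 were used.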

Additional observations from a re-analysis of the deposited data

How the results depend on the processing

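The 11 changes of members past the limit kept their direction and stayed at 1 or more under all 5 alternatives tried for them (pseudocounts of 0.1 and 0.01, scaling to TPM, median-of-ratios factors and the largest row of each identifier), 55 of 55 in all. Part of this was fixed in advance. Each member is on 1 row, so the largest row gives the same values, and a pseudocount below 1 can only enlarge a change. Only scaling to TPM and the median-of-ratios factors could have brought a change under the limit. Some counts of members moved. With a pseudocount of 0.01, 2 genes rose from BC1 to APLNR+ cells and the same 2, *ANGPT2* and *ANGPT4*, fell from APLNR+ to CD31+CD34+ cells, since a smaller pseudocount weighs low values more. With either smaller pseudocount *ANGPT2* was added to the falls from CD31+CD34+ to CD43+ cells, which made 4. With a limit of 2 on the log2 scale, 0 members fell from BC1 to APLNR+ cells, and 2 fell from CD31+CD34+ to CD43+ cells, *TIE1* no longer among them. The shares of all genes that rose and fell moved as well. With a limit of 2 they were 2.68% and 2.29%, 4.08% and 3.15%, and 2.28% and 4.32% at the 3 transitions, and with no filter, over 58274 genes, 2.69% and 2.74%, 3.83% and 3.36%, and 2.24% and 3.98%. Scaling to TPM moved the median of all genes at the last transition from -0.08 to -0.17. No paired analysis was possible because each population had 1 library, and for the same reason no replicate could be left out. Depth limits *ANGPT4*, *ANGPT2* in BC1 and CD43+ cells and *ANGPT1* outside CD43+ cells, which rest on at most 17 fragments each by the median transcript length. By the longest transcript *ANGPT1* rests on about 39, 27 and 47 fragments in BC1, APLNR+ and CD31+CD34+ cells.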

Other observations

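The other angiopoietin-like genes, secreted relatives that bind other receptors, were mostly low, with 4 of 8 past 1 FPKM. *ANGPTL4*, a regulator of lipoprotein lipase, was at 0.909, 1.27, 8.10 and 1.89 FPKM in BC1, APLNR+, CD31+CD34+ and CD43+ cells, and rose by 2.00 and fell by 1.66 on the log2 scale at the later transitions, in the direction of *TEK*. *ANGPTL2* was at 5.39, 11.5, 3.65 and 0.554 FPKM, highest in APLNR+ cells like *ANGPT2*, and fell by 1.43 and 1.58 at the later transitions.

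Of 8 genes known for tip cells, the leading cells of vessel sprouts in which *ANGPT2* is found, 6 passed 1 FPKM and *ESM1* and *CXCR4* did not. From BC1 to APLNR+ cells 2 fell, into CD31+CD34+ cells 4 rose, and into CD43+ cells 2 rose and 3 fell. *DLL4*, a Notch ligand, was at 0.131, 0.420, 18.0 and 1.77 FPKM and *NID2*, a basement membrane protein, at 3.94, 2.43, 19.3 and 8.69 FPKM. *UNC5B*, a netrin receptor, was at 16.0, 18.9, 17.7 and 0.925 FPKM and fell in the last step by 3.28. *ADM* (adrenomedullin) was highest in BC1, at 52.7 FPKM, and fell by 4.31 into APLNR+ cells, where *ANGPT2* rose.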
